A study of Homo sapiens with 10 samples.

Results

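The genes described here encode amino acid transporters of the plasma membrane and the lysosome. They are 35 carrier genes of the solute carrier, cystinosin and major facilitator families, named in advance by symbol and found by their Ensembl identifiers among the 78894 genes of the deposited table. All 35 were among the 29045 genes tested, those that reached 10 normalized counts in 3 or more libraries.

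Amino acids cross membranes largely through carriers. Cystine, the oxidised dimer of cysteine that prevails outside cells, enters mainly in exchange for glutamate through system xc-, a pair made of the light chain SLC7A11 and the heavy chain SLC3A2. The same heavy chain, also called CD98 or 4F2hc, carries several other light chains of the SLC7 family to the cell surface, among them the large neutral amino acid exchanger LAT1 (SLC7A5). Reduced cysteine is taken up by sodium-coupled carriers of the SLC1 family, and inside the lysosome cystine and cysteine are moved by their own carriers, cystinosin (CTNS) and MFSD12. Many carrier genes are known targets of the transcription factor ATF4, which acts in the amino acid response, and SLC7A11 is also a known target of NRF2, which acts in the antioxidant response.

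The study asked how cells adjust to the supply of cysteine, and its RNA sequencing compared the transcripts of cells kept without cysteine with those in complete media. HEK293T cells, an established line from human embryonic kidney, with no allele or transgene named in the labels, were kept for 24 h in cysteine-free media (0X, 2 libraries), complete media (1X, 4 libraries) or media with 10-fold excess cysteine (10X, 4 libraries). The labels call the libraries biological replicates, in numbers other than the study's own text gives for this comparison, and poly(A) RNA was sequenced from each. A single cell line was sequenced, so the values describe that line.

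Each library held between 34836014 and 61654861 recovered reads. The carriers took 0.410 and 0.415% of them in cysteine-free, 0.290 to 0.309% in complete and 0.485 to 0.499% in excess libraries. Of 11 marker genes of HEK293T cells, all 11 passed the filter, and they summed to 58319 to 72297 normalized counts, VIM being the highest. The 6 markers of hepatocyte-like lines summed to at most 39.5 in any library and the 6 of T cell lines to at most 14.1. The filter was also passed by 1, 1, 2 and 3 markers of hepatocyte-like, T cell and breast tumour lines and of fibroblasts. Passing it therefore does not by itself identify the line. Markers of breast tumour lines summed to 3145 to 3766, nearly all from ERBB2 and GATA3 with KRT7 and TFAP2B at 0, and fibroblast markers to 644 to 1063, mostly from COL1A1 with COL1A2 at most at 2.28. The excess-cysteine libraries stood apart in 1 respect, with 0.117 to 0.146% of reads on mitochondrial genes against 4.51 to 5.05% in complete and 5.15 to 5.71% in cysteine-free media. The part of the mitochondrial share in the carriers' differences was not tested. In these bulk libraries a change in RNA per cell and a change in the share of cells that carry it cannot be told apart.

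Values are the deposited normalized counts, reads divided by a size factor per library. Fold changes are differences of log2(normalized count + 1) from limma with their standard error (SE), and a gene was called where its adjusted p, taken over all 29045 genes tested, did not exceed 0.01. A positive fold change means higher in the group named first. The comparisons with complete media share the same 4 complete libraries, so they are not independent of each other.

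In cysteine-free media, 17 of the 35 carriers differed from complete media, 11 higher and 6 lower. For comparison, 15.9% of all genes tested were called, 7.39% higher and 8.51% lower. The increases included 5 of 2-fold or more, in SLC7A3, SLC6A9, SLC1A4, SLC43A1 and SLC7A11, where 1.44% of all genes were called and 2-fold higher. No carrier was called and 2-fold lower, against 0.661% of all genes. The median fold change over the carriers was 0.09 on the log2 scale and that over all genes was 0.00242.

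With excess cysteine, 28 of the 35 carriers differed from complete media, 16 higher and 12 lower. The background was far higher in this comparison, with 46.0% of all genes called, 23.1% higher and 22.9% lower. Of the carriers called, 8 were 2-fold or more higher (SLC1A4, SLC7A11, SLC7A3, SLC7A7, SLC6A9, SLC7A9, SLC43A1 and SLC3A2), against 6.39% of all genes. Another 2 were 2-fold or more lower (SLC1A1 and SLC38A4), against 3.74%. SLC7A9 passed the filter only through the excess libraries, and SLC38A4 reached 10 in no excess library, so the filter favoured both calls. The median fold change was 0.11 over the carriers and 0.01 over all genes. When libraries were scaled to equal totals instead, the median of all genes moved to 0.12, the share of higher calls among all genes went from 50.3 to 61.8%, and the carriers split into 18 higher and 7 lower.

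**Figure D1:**
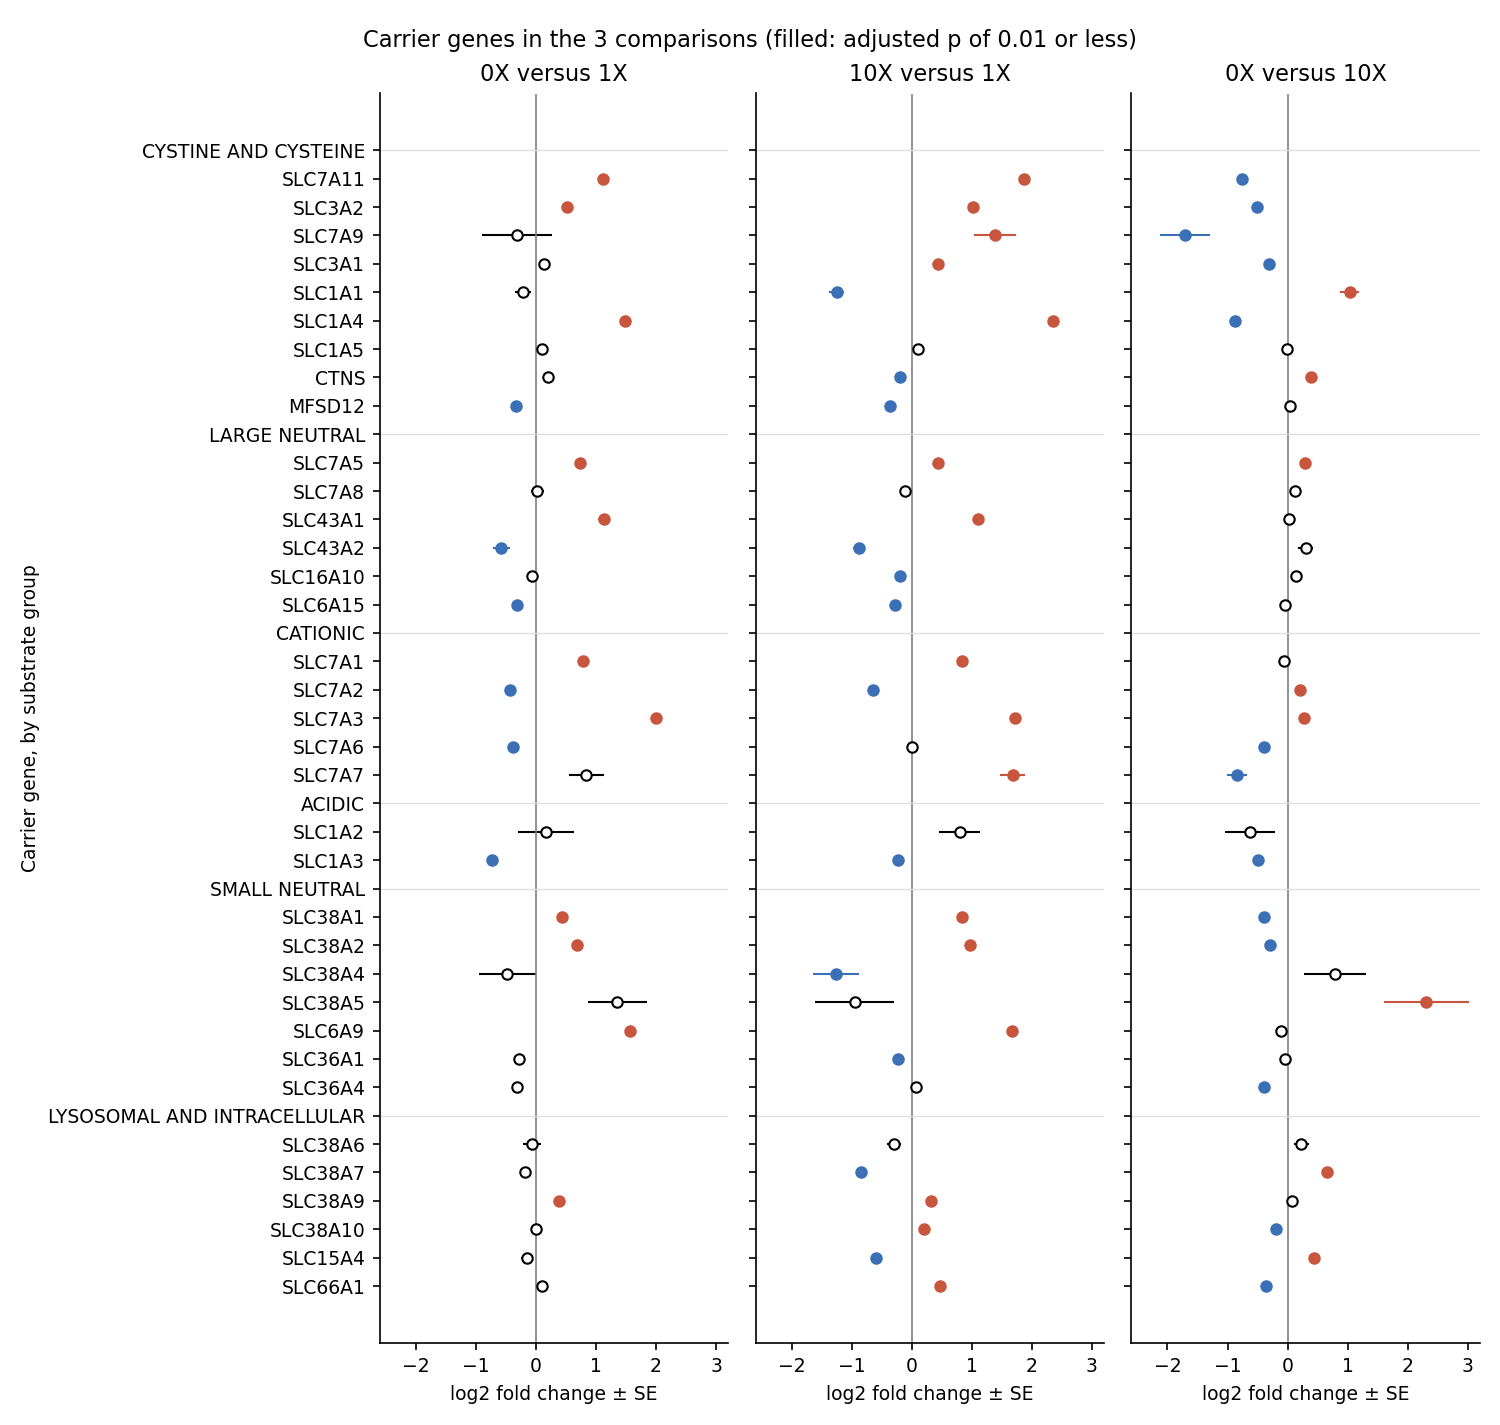
Log2 fold change of each of the 35 carrier genes (x axis, point with bar for ± SE) in cysteine-free against complete, excess against complete and cysteine-free against excess media, with genes on the y axis by substrate group. Filled points passed the threshold of 0.01 on the adjusted p (red higher, blue lower in the group named first), 17, 28 and 21 of 35 in turn; open points were not called.

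The direct comparison of cysteine-free with excess media called 21 of the 35 carriers, 8 higher and 13 lower without cysteine, where 48.0% of all genes were called, 23.6% higher and 24.4% lower. With equal totals the carriers split into 6 higher and 16 lower, and higher calls among all genes went from 49.2 to 40.0%. Differences of 2-fold or more were few: SLC1A1 and SLC38A5 were higher (5.42% of all genes) and SLC7A9 was lower (7.01%). SLC7A9 passed the filter only through the excess libraries, and SLC38A5 reached 10 in none of those, so the filter favoured both calls. Among genes whose exons overlap no other gene, 16.2, 46.0 and 48.6% of 11764 were called in the 3 comparisons, and 11, 18 and 13 of the 20 carriers in that set.

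Of the 35 carriers, 29 had an entry in the RefSeq promoter table (assembly GRCh38.p14), which holds 250 bases before to 50 after each transcription start. The other 6, SLC7A11, SLC7A3, SLC3A1, SLC6A15, SLC1A2 and SLC7A2, were not searched. A pair of short motifs was searched there on both strands: TGATGNAA, the core of the amino acid response element bound by ATF4 with a C/EBP partner, and TGACNNNGC, the core of the antioxidant response element bound by NRF2. A carrier may have several starts, 51 in all for the 29. The amino acid response motif lay in 6 of these 51 promoters (11.8%), against 3.62% of all 35116, and the antioxidant motif lay in 9 of 51 (17.6%), against 13.4% of all. Matches to both lay in 2 promoters, and in 0 of these did they share bases. All 6 matches to the first motif are shown, in carriers that rose, fell or were not called, with the motif in capitals and each window read 5′ to 3′ on the strand of its gene.
SLC1A4 (chr2:64989381-64989410, plus strand, motif on the opposite strand): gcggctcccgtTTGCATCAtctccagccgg
SLC3A2 (chr11:62881725-62881748, plus strand, motif on the opposite strand): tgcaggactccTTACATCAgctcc
SLC7A1 (chr13:29595663-29595692, minus strand): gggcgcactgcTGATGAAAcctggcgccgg
SLC38A1 (chr12:46266502-46266531, minus strand): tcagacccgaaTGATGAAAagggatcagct
SLC1A5 (chr19:46784893-46784922, minus strand): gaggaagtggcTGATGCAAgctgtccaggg
SLC1A3 (chr5:36596357-36596386, plus strand): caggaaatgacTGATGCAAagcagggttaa
The motif began 7 bases before the annotated start in SLC1A4, 4 before in SLC38A1, 97 before in SLC1A5 and 220 before in SLC1A3, and 8 and 38 bases after it in SLC7A1 and SLC3A2. The carriers with these letters did not move alike. SLC1A4, SLC3A2, SLC7A1 and SLC38A1 were higher than in complete media in both changed media, SLC1A3 was lower in both, and SLC1A5 was not called in either. A match is a description of letters and no evidence of binding in these cells.

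Among the 9 carriers of cystine and cysteine, 3 were higher and 1 was lower in cysteine-free media, and 5 were higher and 3 lower with excess cysteine. Of all genes tested, 7.39% were called higher and 8.51% lower without cysteine, and 23.1 and 22.9% with excess. SLC7A11, the cystine-importing light chain of system xc- (ENSG00000151012, chr4:138164097-138242349, minus strand), had 9949 and 10498 normalized counts in the cysteine-free libraries. Complete libraries held 4482, 5130, 4257 and 4932, and excess libraries 16645, 18228, 16385 and 17708. The 3 media did not overlap, and both changed media lay above complete media, the excess libraries highest. SLC7A11 rose by a log2 fold change of 1.12 ± 0.07 (SE, adjusted p = 2.88e-07, limma) without cysteine and by 1.88 ± 0.05 (adjusted p = 4.73e-14, limma) with excess. It was 0.75 lower on the log2 scale in cysteine-free than in excess media (fold change -0.75 ± 0.04, adjusted p = 8.66e-14, limma). The antisense gene SLC7A11-AS1 shares 8.97% of the exon bases of SLC7A11 and had means of 980, 456 and 1650 in cysteine-free, complete and excess media. The study's methods name a directional library kit and say that reads falling on more than 1 gene were left out, without a strand setting. The deposited values still hold reads for unnamed genes that lie wholly within exons of MFSD12 and SLC38A10 on the other strand (680 and 720 normalized counts per kb, against 498 and 558 for the carriers), so the values of overlapping genes are given here with that limit.

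SLC3A2, the heavy chain that SLC7A11 and other light chains need at the surface (ENSG00000168003, chr11:62856004-62888880, plus strand), showed the same order of media. It had 12066 and 12919 in cysteine-free libraries, 8637, 8946, 8466 and 8893 in complete libraries, and 17154, 17465, 17819 and 18276 in excess libraries, with no overlap. The fold change was 0.52 ± 0.05 (adjusted p = 1.12e-05, limma) without cysteine and 1.02 ± 0.04 (adjusted p = 4.25e-13, limma) with excess, and -0.50 ± 0.04 (adjusted p = 2.7e-11, limma) between those media. No exon of SLC3A2 overlaps another gene.

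**Figure D2:**
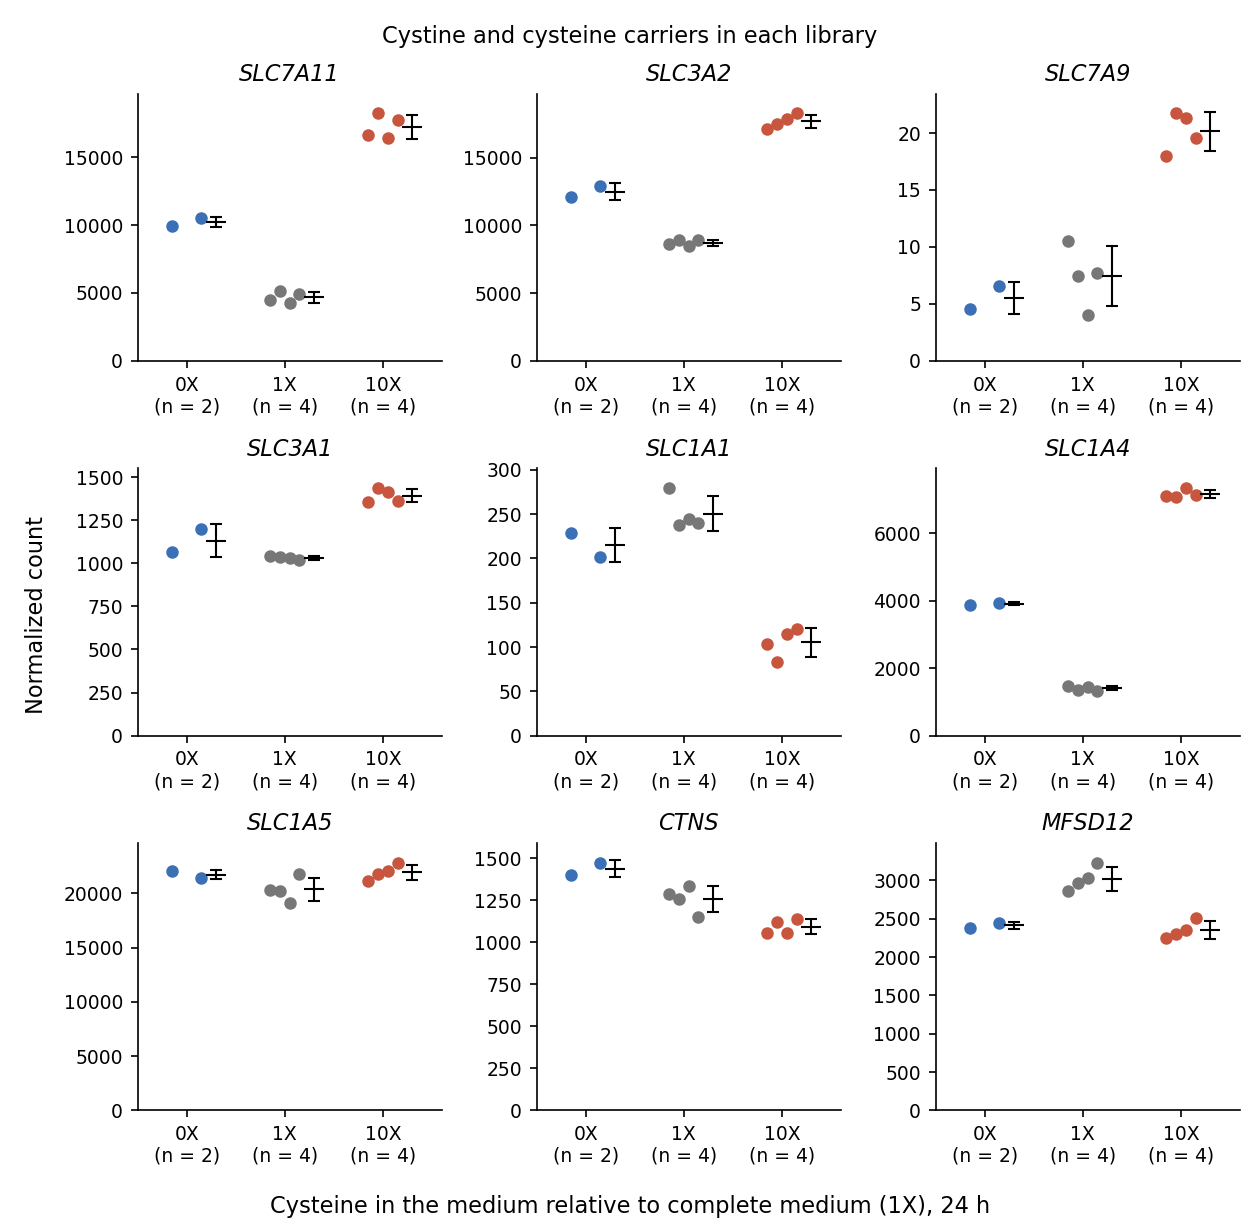
Normalized counts (y axis, from 0, with a scale per panel) of the 9 cystine and cysteine carriers in each library (points) of the 0X, 1X and 10X media (x axis), with the mean and SD beside each group. SLC7A11, SLC3A2 and SLC1A4 lay lowest in 1X and highest in 10X without overlap, SLC1A1 fell to 82.6 to 120 in 10X, and the groups of SLC1A5 were close, with 19099 to 22819 over all libraries.

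SLC1A4 (ASCT1), a sodium-coupled exchanger of alanine, serine, threonine and cysteine (ENSG00000115902, chr2:64988477-65023865, plus strand), gave the largest increase of all 35 carriers with excess cysteine. Its values were 3887 and 3939 without cysteine, 1459, 1368, 1446 and 1331 in complete media, and 7095, 7077, 7341 and 7146 with excess. The excess libraries averaged 5.11 times the complete ones and the cysteine-free libraries 2.79 times, and the spread within each medium was small beside these gaps. The fold changes were 1.48 ± 0.07 (adjusted p = 8.95e-09, limma) and 2.35 ± 0.04 (adjusted p = 1.66e-16, limma), and -0.87 ± 0.04 (adjusted p = 1.65e-15, limma) directly.

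SLC1A5 (ASCT2), the glutamine exchanger nearest to SLC1A4 in the family, had the highest level of the carriers per kb of exon in complete media. It had 22023 and 21435 in cysteine-free libraries, 20357, 20248, 19099 and 21758 in complete, and 21150, 21775, 22091 and 22819 in excess libraries. The groups overlapped in all 3 comparisons. None of the fold changes was called (0.09 ± 0.05, 0.11 ± 0.04 and -0.01 ± 0.04). The value with excess depended on the scaling and was called with equal totals (0.21, adjusted p = 1.54e-04, limma), equal nuclear totals (0.15, adjusted p = 3.44e-03, limma) and quantile normalization (0.24, adjusted p = 6.98e-05, limma), and without complete replicate 4 (0.14, adjusted p = 3.15e-03, limma). The direct difference was called with equal totals (-0.10, adjusted p = 8.98e-03, limma) and quantile normalization (-0.12, adjusted p = 1.06e-03, limma). As a share of the 2 carriers' summed counts per kb, SLC1A4 made up 7.81 to 8.11% without cysteine, 2.85 to 3.51% in complete media and 13.1 to 13.9% with excess. An unnamed gene on the other strand shares 23.4% of the exon bases of SLC1A5. It held 4528 normalized counts per kb on average over all libraries, against 6385 for SLC1A5, and whether the genes share reads was not tested.

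SLC1A1 (EAAT3), which imports glutamate, aspartate and cysteine (ENSG00000106688, chr9:4490468-4587469, plus strand), went the other way. Its values were 229 and 202 without cysteine, 279, 237, 245 and 240 in complete media, and 104, 82.6, 115 and 120 with excess. Every excess library lay below every other library, while the cysteine-free libraries lay just below the complete ones. SLC1A1 fell with excess by a fold change of -1.25 ± 0.13 (adjusted p = 2.47e-07, limma), and was not called without cysteine (-0.22 ± 0.13, adjusted p = 0.243, limma). Between the changed media the difference was 1.04 ± 0.16 (adjusted p = 3.94e-06, limma).

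SLC7A9 and SLC3A1 form the renal cystine carrier b0,+, whose defects cause cystinuria. The light chain SLC7A9 was near the limit of detection, with 4.56 and 6.54 without cysteine, 10.5, 7.41, 4.06 and 7.68 in complete media, and 18.0, 21.7, 21.3 and 19.5 with excess. It passed the filter only through the excess libraries, so the filter favoured its calls. It was called with excess (1.39 ± 0.35, adjusted p = 2.88e-03, limma) and between the changed media (-1.70 ± 0.41, adjusted p = 1.02e-03, limma), though the call with excess was lost without excess replicate 2 (adjusted p = 0.0103) or 3 (adjusted p = 0.0109), and the direct call without cysteine-free replicate 1 (adjusted p = 0.0101). Its heavy chain SLC3A1 was better expressed, with 1063 and 1201 without cysteine, 1042, 1036, 1031 and 1017 in complete media, and 1356, 1436, 1416 and 1362 with excess. SLC3A1 rose with excess cysteine (0.43 ± 0.05, adjusted p = 1.3e-06, limma) and was not called without cysteine (0.13 ± 0.08). PREPL, a gene on the other strand that shares 29.4% of the exon bases of SLC3A1, gave 0.44 ± 0.04 with excess. An unnamed gene on the same strand shares 26.9% of these bases and held 333 normalized counts per kb, against 183 for SLC3A1. Whether these genes share reads with SLC3A1 was not tested.

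The lysosome has its own carriers of this substrate. CTNS, which exports cystine from the lysosome and is mutated in cystinosis, had 1401 and 1472 without cysteine, 1286, 1259, 1332 and 1152 in complete media, and 1052, 1121, 1057 and 1140 with excess. The cysteine-free libraries were the highest and the excess libraries the lowest, without overlap. CTNS was called against excess (0.39 ± 0.06, adjusted p = 3.34e-06, limma), was not called without cysteine against complete media (0.19 ± 0.08, adjusted p = 0.076, limma), and was called lower with excess than in complete media (-0.20 ± 0.06, adjusted p = 7.58e-03, limma). That last call was lost on leaving out complete replicate 1, 2 or 3 or excess replicate 1, 2 or 3, with adjusted p between 0.0128 and 0.0284, and with equal totals (adjusted p = 0.145). MFSD12, which brings cysteine into lysosomes and melanosomes, had 2384 and 2443 without cysteine, 2859, 2968, 3029 and 3231 in complete media, and 2249, 2301, 2356 and 2508 with excess. Complete media held the highest values, and MFSD12 fell in both changed media (-0.32 ± 0.06, adjusted p = 2.03e-03, and -0.36 ± 0.05, adjusted p = 9.98e-06, limma). The call without cysteine was lost on leaving out cysteine-free replicate 1 (adjusted p = 0.0444) or 2 (adjusted p = 0.0313).

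The 35 carriers include 5 light chains that pair with SLC3A2, namely SLC7A11, SLC7A5 (LAT1), SLC7A8 (LAT2), SLC7A6 (y+LAT2) and SLC7A7 (y+LAT1). A further partner outside the 35, SLC7A10 (Asc-1), had 21.6 to 45.2 normalized counts and is not in the sums. Summed per kb of exon, these light chains stood at 8095 and 8284 in cysteine-free libraries, 4995 to 5300 in complete and 7641 to 8292 in excess libraries. The sum was thus above complete media in both changed media, yet its composition differed. SLC7A11 made up 12.7 and 13.1% of it without cysteine, 8.84 to 10.1% in complete media and 21.3 to 24.3% with excess, and SLC7A5 made up 79.5 and 79.6%, 75.5 to 76.6% and 65.6 to 69.0%. The ratio of summed light chains to SLC3A2 per kb was 4.10 and 4.29 without cysteine, 3.77 to 3.81 in complete media and 2.85 to 2.90 with excess, with no overlap between media. No test was run on these ratios, and they describe transcripts, not assembled carriers.

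**Figure D3:**
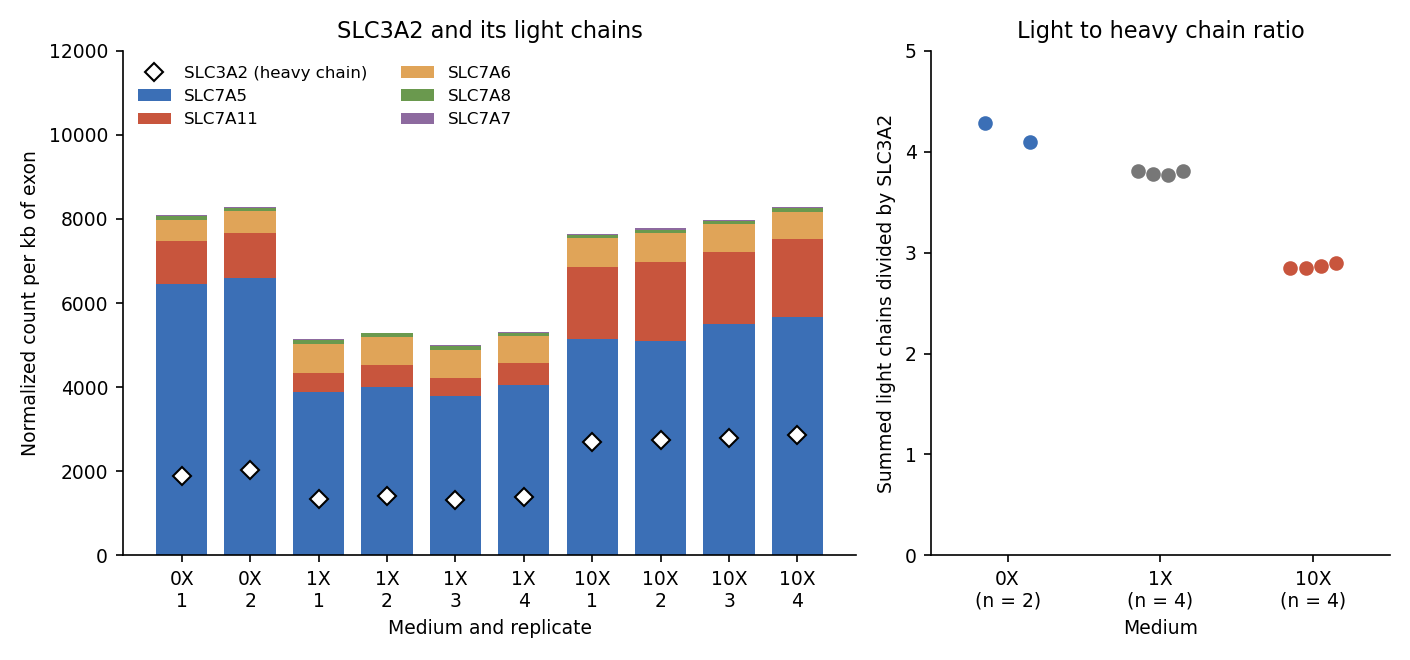
Left, normalized counts per kb of exon (y axis) of the 5 light chains (stacked bars) and of the heavy chain SLC3A2 (diamonds) in each library (x axis, medium and replicate). Right, summed light chains divided by SLC3A2 in each library, between 4.10 and 4.29 in 0X, 3.77 and 3.81 in 1X and 2.85 and 2.90 in 10X.

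Of the 6 carriers of large neutral amino acids, 2 were higher and 2 lower without cysteine, and 2 were higher and 3 lower with excess. Beside these, 7.39% of all genes were called higher and 8.51% lower without cysteine, and 23.1 and 22.9% with excess. SLC7A5, which exchanges leucine and other large neutral amino acids for glutamine, had means of 31046 ± 473 (SD, n = 2) without cysteine, 18736 ± 583 (SD, n = 4) in complete media and 25510 ± 1354 (SD, n = 4) with excess. It was the one light chain of SLC3A2 called higher in cysteine-free than in excess media (0.28 ± 0.04, adjusted p = 1.04e-06, limma), after 0.73 ± 0.05 and 0.44 ± 0.04 against complete media. The related pseudogenes SLC7A5P1 and SLC7A5P2 had means of at most 140 and 392, and reads could be split between such copies. On the strand opposite SLC7A5, an unnamed gene shares 5.69% of its exon bases. That gene held 2771 normalized counts per kb on average over all libraries, against 5018 for SLC7A5, and whether they share reads was not tested.

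SLC43A1 (LAT3), which carries large neutral amino acids by facilitated diffusion, had 2074 and 2178 without cysteine, 988, 1009, 1058 and 847 in complete media, and 1971, 2114, 2191 and 2084 with excess. Both changed media lay at a like height above complete media. The fold changes were 1.13 ± 0.09 (adjusted p = 1.83e-06, limma) and 1.10 ± 0.07 (adjusted p = 3.32e-10, limma), and the direct difference of 0.03 ± 0.05 was not called. Its relative SLC43A2 (LAT4) moved down, from a mean of 342 in complete media to 230 without cysteine (-0.58 ± 0.14, adjusted p = 9.16e-03, limma) and 185 with excess (-0.88 ± 0.10, adjusted p = 6.85e-07, limma). The call without cysteine was lost without cysteine-free replicate 1 (-0.37, adjusted p = 0.183) or 2 (-0.78, adjusted p = 0.0173), without complete replicate 1, 2 or 4 (adjusted p = 0.0374, 0.0238 and 0.0113), and with equal totals (adjusted p = 0.0118). Without cysteine-free replicate 1 the direct difference was called (0.51 in place of 0.30, adjusted p = 5.18e-03, limma).

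The remaining carriers of this group had smaller differences. SLC6A15 (B0AT2), a sodium-coupled carrier of branched-chain amino acids and proline, fell from 4362 in complete media to 3504 without cysteine (-0.32 ± 0.06) and 3617 with excess (-0.27 ± 0.04), and the first of these calls was lost without cysteine-free replicate 1 (adjusted p = 0.037) or 2 (adjusted p = 0.0129). SLC16A10 (TAT1), a carrier of aromatic amino acids, was called with excess by a small margin (-0.19 ± 0.06, adjusted p = 8.75e-03, limma), and 6 of the 8 fits without 1 library lost the call, those without complete replicate 2 or 3 or any excess replicate, with adjusted p from 0.0113 to 0.0389, as did equal totals (adjusted p = 0.221). SLC7A8 (LAT2) averaged 537, 530 and 490 and was not called in any comparison.

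Cationic amino acids such as arginine and lysine enter through the CAT carriers and leave through the y+LAT light chains. SLC7A3 (CAT3; ENSG00000165349, chrX:70925579-70931125, minus strand) showed the largest increase of the 35 carriers in cysteine-free media. It had 2196 and 2542 there, 568, 598, 595 and 598 in complete media, and 1804, 1992, 1961 and 2038 with excess. The means were 4.02 and 3.3 times that of complete media, and the 3 media did not overlap. The fold changes were 2.00 ± 0.08 (adjusted p = 4.89e-09, limma) and 1.72 ± 0.06 (adjusted p = 1.96e-13, limma), and the value without cysteine exceeded that with excess (0.28 ± 0.06, adjusted p = 2.68e-04, limma), a call that was lost without cysteine-free replicate 2 (adjusted p = 0.041).

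SLC7A1 (CAT1), the widespread arginine importer, was far more abundant per kb of exon than SLC7A3 and rose less. Its means were 22385 ± 677, 13003 ± 124 and 23351 ± 733 normalized counts (SD, n = 2, 4 and 4), with fold changes of 0.78 ± 0.04 (adjusted p = 1.03e-07, limma) and 0.84 ± 0.03 (adjusted p = 2.15e-12, limma), and no call between the changed media (-0.06 ± 0.04), where equal totals (-0.14, adjusted p = 2.26e-04, limma) and quantile normalization (-0.19, adjusted p = 3.22e-05, limma) gave a call. SLC7A2 (CAT2) went down, with means of 2024, 2742 and 1759 and fold changes of -0.44 ± 0.06 (adjusted p = 1.94e-04, limma) and -0.64 ± 0.05 (adjusted p = 1.2e-08, limma). The first call was lost without cysteine-free replicate 2 (adjusted p = 0.0108). The 3 CAT genes therefore differed in direction, and as a share of their summed counts per kb SLC7A3 took 23.8 to 25.8% without cysteine, 10.9 to 11.6% in complete media and 20.3 to 21.4% with excess.

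The y+LAT light chains exchange cationic for neutral amino acids. SLC7A7 (y+LAT1), mutated in lysinuric protein intolerance, was low, with 84.3 and 96.0 without cysteine, 55.7, 75.4, 32.5 and 45.0 in complete media, and 139, 142, 164 and 211 with excess. The media did not overlap and excess libraries were highest. It rose with excess (1.68 ± 0.21, adjusted p = 3.79e-06, limma), was not called without cysteine (0.84 ± 0.30, adjusted p = 0.0493, limma), and was lower without cysteine than with excess (-0.84 ± 0.16, adjusted p = 9.3e-05, limma).

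SLC7A6 (y+LAT2) had means of 3842, 5034 and 5067, lower in cysteine-free media and near the level of complete media with excess. Its fold changes were -0.39 ± 0.05 (adjusted p = 1.61e-04, limma) and 0.01 ± 0.04 (adjusted p = 0.841, limma), and -0.40 ± 0.04 (adjusted p = 6.37e-09, limma) directly. SLC7A6OS, on the other strand, shares 44.4% of the exon bases of SLC7A6 and gave -0.28 ± 0.06 and 0.13 ± 0.04, and whether the 2 genes share reads was not tested. With equal totals SLC7A6 was called higher with excess (0.12, adjusted p = 8.05e-03, limma).

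**Figure D4:**
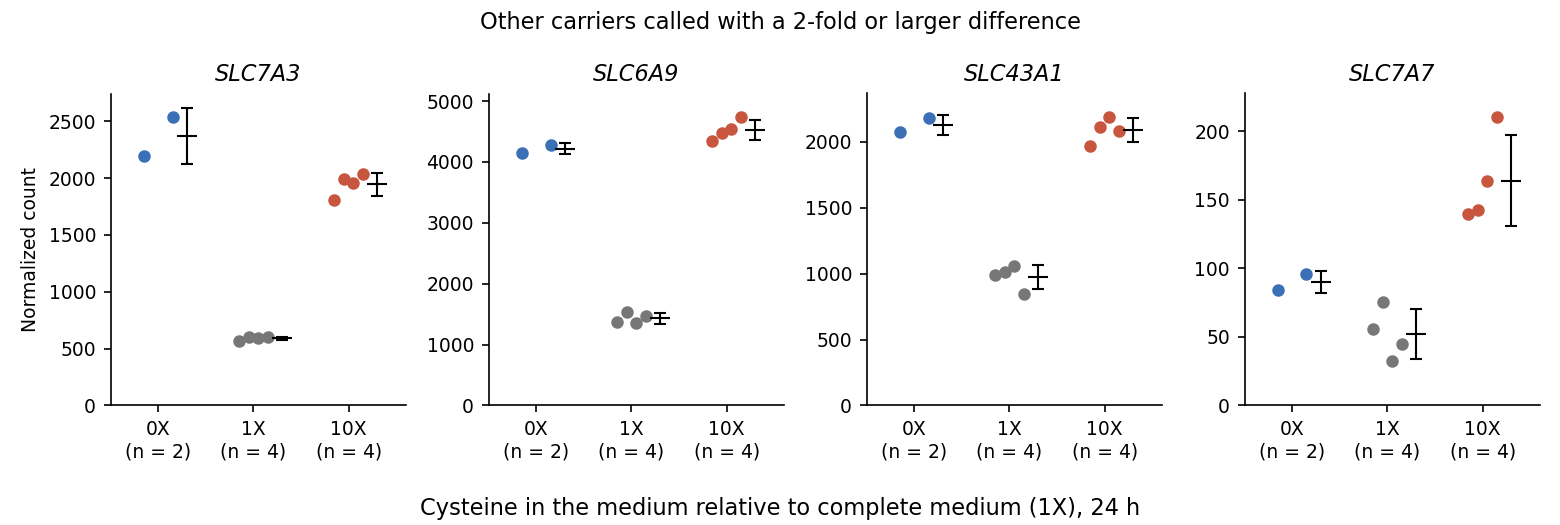
Normalized counts (y axis, from 0, with a scale per panel) of SLC7A3, SLC6A9, SLC43A1 and SLC7A7 in each library (points) of the 0X, 1X and 10X media (x axis), with the mean and SD beside each group. All libraries of both changed media lay above all complete libraries for each gene, from 568 to 598 in complete media against 1804 or more elsewhere for SLC7A3.

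The acidic amino acid carriers also include the glial glutamate carriers. SLC1A3 (EAAT1) had means of 2136 ± 101 without cysteine, 3549 ± 148 in complete media and 3014 ± 84 with excess (SD, n = 2, 4 and 4). It fell without cysteine (-0.73 ± 0.06, adjusted p = 3.62e-06, limma) and less with excess (-0.24 ± 0.04, adjusted p = 2.16e-04, limma), and the direct difference was also called (-0.50 ± 0.05, adjusted p = 2.68e-09, limma). With equal totals the call with excess was lost (adjusted p = 0.0181). SLC1A2 (EAAT2) was close to the filter at 8.4 to 26.1 normalized counts and was not called.

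Among the 7 carriers of small neutral amino acids, 3 rose in each comparison with complete media: SLC38A1, SLC38A2 and SLC6A9. With excess 2 were called lower, SLC36A1 and SLC38A4. Of all genes, 7.39% were called higher without cysteine, and 23.1% higher and 22.9% lower with excess. SLC6A9 (GLYT1), the sodium-coupled glycine carrier (ENSG00000196517, chr1:43991500-44031467, minus strand), had 4151 and 4278 without cysteine, 1367, 1528, 1347 and 1470 in complete media, and 4342, 4478, 4545 and 4744 with excess. It stood at 2.95 and 3.17 times its level in complete media, and the spread within each medium was below the gap. The fold changes were 1.56 ± 0.07 (adjusted p = 9.07e-09, limma) and 1.67 ± 0.05 (adjusted p = 8.64e-14, limma), and -0.10 ± 0.04 (adjusted p = 0.0478, limma, not called) directly, a difference that was called with equal totals (-0.18, adjusted p = 3.76e-04, limma).

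SLC38A1 (SNAT1) and SLC38A2 (SNAT2), sodium-coupled carriers of glutamine and alanine, are neighbours on chromosome 12 at 46183063 to 46270017 and 46358188 to 46372773. SLC38A1 had means of 19561, 14511 and 25792 in cysteine-free, complete and excess media, and SLC38A2 of 15620, 9718 and 19100. The fold changes of SLC38A1 were 0.43 ± 0.05 (adjusted p = 4.11e-05, limma) and 0.83 ± 0.04 (adjusted p = 1.04e-11, limma). Those of SLC38A2 were 0.68 ± 0.05 (adjusted p = 1.01e-06, limma) and 0.97 ± 0.04 (adjusted p = 1.24e-12, limma). Both genes were lower without cysteine than with excess (-0.40 ± 0.04 and -0.29 ± 0.04).

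The third gene of this neighbourhood, SLC38A4 (SNAT4), was barely detected, with 8.72 to 20.5 without cysteine, 10.2 to 27.4 in complete media and 5.1 to 8.69 with excess. No excess library reached 10, the value set by the filter. Its call with excess (-1.26 ± 0.38, adjusted p = 9.04e-03, limma) was lost in 7 of 8 fits without 1 library, all but that without complete replicate 3, with adjusted p from 0.0134 to 0.0349, and with equal totals (adjusted p = 0.0152). SLC38A5 (SNAT5) was as low, with 19.4 and 27.3 without cysteine, 4.2 to 11.1 in complete media and 0 to 8.5 with excess, and it was called only between the changed media (2.31 ± 0.71, adjusted p = 7.22e-03, limma), a call lost without either cysteine-free replicate (adjusted p = 0.0274 and 0.0771).

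The proton-coupled carrier SLC36A1 (PAT1) had means of 997, 1209 and 1026 and was called with excess alone (-0.24 ± 0.05, adjusted p = 1.3e-03, limma), with -0.28 ± 0.08 (adjusted p = 0.0144, limma) without cysteine. The call was lost with equal totals (adjusted p = 0.0573). SLC36A4 (PAT4) had means of 1323, 1643 and 1722 and was called between the changed media (-0.39 ± 0.06, adjusted p = 1e-05, limma). Against complete media without cysteine it gave -0.32 ± 0.09 (adjusted p = 0.0152, limma), which was called on leaving out complete replicate 3 (adjusted p = 1.44e-03), as was SLC36A1 (adjusted p = 5.01e-03). DESeq2 on recovered reads called both lower without cysteine (adjusted p = 8.97e-03 for SLC36A1 and 5.42e-03 for SLC36A4). So did limma fitted to all groups at once (adjusted p = 3.12e-03 and 3e-03), while edgeR called neither.

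A group of 6 carriers act in the lysosome or other internal membranes, or have no settled place: SLC38A6, SLC38A7, SLC38A9, SLC38A10, SLC15A4 and SLC66A1. In cysteine-free media 1 of these 6 was called, SLC38A9, beside 15.9% of all genes, and with excess 3 were higher and 2 lower, beside 46.0% of all genes. SLC38A9, the lysosomal arginine sensor that acts upstream of mTORC1, had means of 1119, 859 and 1067, with fold changes of 0.38 ± 0.09 (adjusted p = 5.46e-03, limma) and 0.31 ± 0.06 (adjusted p = 4.53e-04, limma). The first of these was lost without cysteine-free replicate 1 (adjusted p = 0.0284) or 2 (adjusted p = 0.12) or complete replicate 2 (adjusted p = 0.0226).

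SLC66A1 (PQLC2), which exports cationic amino acids and the cysteine-cysteamine mixed disulphide from lysosomes, rose with excess from a mean of 806 to 1109 (0.46 ± 0.07, adjusted p = 1.48e-05, limma) and stood at 868 without cysteine, which was not called. SLC38A7 (SNAT7), which exports glutamine and asparagine from lysosomes, had means of 1288, 1458 and 814 and fell with excess (-0.84 ± 0.07, adjusted p = 2.3e-08, limma). SLC15A4, a lysosomal carrier of histidine and peptides, had means of 877, 981 and 646 and also fell with excess (-0.60 ± 0.07, adjusted p = 2.37e-06, limma). Both were higher without cysteine than with excess, by 0.66 ± 0.07 and 0.44 ± 0.07.

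SLC38A10, an intracellular carrier, had means of 4175, 4163 and 4769 and rose slightly with excess (0.20 ± 0.04, adjusted p = 9.06e-04, limma). SLC38A6, an orphan carrier, averaged 233, 245 and 199 and was not called. CTNS and MFSD12, described above with the cystine carriers, share the lysosome with this group.

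Ordered by normalized count per kb of exon in complete media, SLC1A5 (6112 ± 327, SD, n = 4) was first, followed by SLC7A5 (3933 ± 122) and SLC7A1 (1691 ± 16). SLC38A2 (1493 ± 50), SLC38A1 (1449 ± 52) and SLC3A2 (1367 ± 35) came next, where SLC38A2 and SLC38A1 differed by less than the SD of either. SLC7A11 ranked 10 at 487 ± 42 and SLC1A4 ranked 19 at 202 ± 9. With excess cysteine SLC7A11 reached 1788 and SLC1A4 1032 per kb, while without cysteine they reached 1060 and 564. At the low end, SLC38A4, SLC7A9, SLC38A5 and SLC1A2 had 4.9 or fewer per kb in complete media.

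A further list of 26 amino acid carriers outside the 35 was examined, of which 10 passed the filter. In cysteine-free media 1 was higher and 1 lower, beside 15.9% of all genes called. With excess cysteine 4 were higher and 2 lower, beside 46.0% of all genes called. SLC6A6, the taurine carrier, had 798 to 821 normalized counts without cysteine, 1545 to 1812 in complete media and 1895 to 1993 with excess. It fell without cysteine (-1.06 ± 0.08, adjusted p = 9.69e-07, limma) and was slightly higher with excess (0.21 ± 0.05, adjusted p = 2.4e-03, limma). SLC66A3, a relative of the lysosomal exporter SLC66A1, fell with excess to 32.3 to 55.5 from 102 to 165 (-1.61 ± 0.20, adjusted p = 2.77e-06, limma).

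Of 7 genes known as partners of these carriers or in their turnover, 6 passed the filter, 1 was higher and 1 lower in cysteine-free media, and 2 were higher and 3 lower with excess. Of all genes, 15.9 and 46.0% were called in these comparisons. LAPTM4B was called lower in both (-0.22 ± 0.05 and -0.45 ± 0.04). With excess alone, NEDD4L was called higher (0.43 ± 0.07) and SGK1 lower (-0.43 ± 0.12). NEDD4, a ubiquitin ligase of membrane proteins, rose from 448 to 588 in complete libraries to 938 and 1052 without cysteine (0.87 ± 0.11, adjusted p = 1.1e-04, limma) and 1052 to 1281 with excess (1.07 ± 0.09, adjusted p = 1.5e-08, limma). OTUB1, a deubiquitylase reported to stabilise SLC7A11, was lower with excess (-0.57 ± 0.05, adjusted p = 5.85e-08, limma) and had -0.15 ± 0.06 without cysteine, which was not called.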

How the data were processed

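Poly(A) RNA of HEK293T cells was sequenced after 24 h in cysteine-free (2 libraries), complete (4) or excess-cysteine media (4). Per the submitters' processing notes, reads were aligned with STAR 2.7.10b to GRCh38. Those notes name HTSeq and the study's methods featureCounts for counting, the latter with reads on several genes left out, and the strand setting is not given in the sources used here. The deposited signal is each gene's read count divided by the library's DESeq2 size factor. Divided by 1 step per library, 100% of values came out whole (tolerance 0.01 of a step), which gave back the reads. Replicates differed by more than sampling noise (chi-square over its degrees of freedom 3.45 to 14), so none was a repeat deposit. Precision is limited by the number of libraries.

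Of 78894 genes, 61463 were found in GENCODE 44. Genes that reached 10 in 3 libraries (29045) were tested on log2(value + 1) with limma 3.58.1 (trend, 2-sided) in R 4.3.3, each comparison with its own groups, with Benjamini-Hochberg adjustment and a threshold of 0.01. Since the deposited values are not counts, DESeq2 1.42.0 and edgeR 4.0.16, run on recovered reads, were alternatives, beside other filters, scalings, thresholds and omitted libraries. The subset of carriers without exon overlap was added after seeing the data. On simulated data with 200 of 29045 genes changed, the cysteine-free comparison called 167 of these and 0 others, and that with excess 181 and 4. The changed genes all had a mean of 100 or more. Changes in lower carriers, and shifts in many genes as with excess, were therefore not covered. All 35 carriers are named, with values per library for the cystine and cysteine carriers and for others called with 2-fold or more and a mean of 100 or more. From the further carrier list, genes called with 2-fold or more are named, and 1 gene of that list is not reported here. NEDD4, OTUB1, LAPTM4B, NEDD4L and SGK1 were named after their values were seen. The members and lists were chosen with earlier results of these data known.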

Additional observations from a re-analysis of the deposited data

Results flagged for a closer look

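Within groups of 4 libraries, 1 library stood apart from the rest in 5 of 70 cases, where about 3.5 would arise by chance (about 1 in 20 groups). The gap to the nearest other library, divided by the range of the group, was 0.836 for SLC6A15 in excess replicate 2 (3805 normalized counts against 3530 to 3575), 0.850 for SLC7A1 in complete replicate 4 (12819 against 13043 to 13082) and 0.895 for SLC7A3 in complete replicate 1 (568 against 595 to 598). It was 0.861 for SLC38A7 in complete replicate 3 (1299 against 1491 to 1522) and 0.891 for SLC66A1 in excess replicate 4 (1184 against 1080 to 1091).

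The differences from complete media were themselves unequal between cysteine-free and excess media for 21 of the 35 carriers. This is by the direct limma comparison of those media (threshold of 0.01 on the adjusted p), which called 48.0% of all genes. The values are log2, cysteine-free minus excess. Among cystine and cysteine carriers they were -0.75 for SLC7A11, -0.50 for SLC3A2, -1.70 for SLC7A9, -0.30 for SLC3A1, 1.04 for SLC1A1, -0.87 for SLC1A4 and 0.39 for CTNS. Among large neutral and cationic carriers they were 0.28 for SLC7A5, 0.20 for SLC7A2, 0.28 for SLC7A3, -0.40 for SLC7A6 and -0.84 for SLC7A7. Acidic and small neutral carriers gave -0.50 for SLC1A3, -0.40 for SLC38A1, -0.29 for SLC38A2, 2.31 for SLC38A5 and -0.39 for SLC36A4. The internal carriers gave 0.66 for SLC38A7, -0.19 for SLC38A10, 0.44 for SLC15A4 and -0.35 for SLC66A1. The call was lost without cysteine-free replicate 1 for SLC3A1 (adjusted p = 0.0153, limma), without cysteine-free replicate 2 for SLC38A10 (adjusted p = 0.0111, limma), and for SLC7A2 without cysteine-free replicate 1 or 2 or excess replicate 4 (adjusted p = 0.0241, 0.0165 and 0.0106, limma) and with equal totals (0.12, adjusted p = 0.0602, limma). Outside the 35, the difference was 2.05 for SLC66A3 and -1.27 for SLC6A6.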

How the results depend on the processing

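Of the carriers called, 12 of 17 without cysteine, 22 of 28 with excess and 15 of 21 between the changed media kept the call in every alternative other than the 2-fold limit. A 2-fold limit left 5, 10 and 3 carriers and 609, 2942 and 3610 genes. An adjusted p of 0.05 called 7987 genes without cysteine instead of 4618, and leaving out 1 library gave 978 (without cysteine-free replicate 2) to 6300 genes and 12 to 19 carriers there. With 1 cysteine-free library left, its spread is taken from the complete libraries. Without a filter on low values the calls of SLC7A9, CTNS, SLC16A10 and SLC38A4 with excess and of SLC38A5 between the changed media were lost (adjusted p = 0.0124, 0.0111, 0.0123, 0.0297 and 0.0186, limma). A filter of 50 in 3 libraries left 31 carriers to test. edgeR called 17, 28 and 21 carriers, beside 4941, 13525 and 13834 genes. DESeq2 called 19, 28 and 21 carriers, beside 5435, 13816 and 13126 genes. Libraries with the same replicate number did not deviate together (correlations from -0.0281 to 0.0392 across genes), so no pairing by number showed. The check cannot exclude a shared batch, since low genes add noise and the deviations of the 2 cysteine-free libraries mirror each other. A fit with the replicate number as a block called 18, 26 and 21 carriers and 6532, 13392 and 12393 genes, losing CTNS (adjusted p = 0.0126, limma) and SLC38A4 (adjusted p = 0.0134, limma) with excess.

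No carrier that was called changed direction in any alternative. Directions that turned belonged to carriers not called. On leaving out 1 library, log2 fold changes without cysteine ranged from -0.053 to 0.0963 for SLC7A8 (-0.0332 with quantile normalization), from -0.17 to 0.516 for SLC1A2, from -1.05 to 0.0993 for SLC38A4, from -0.143 to 0.0245 for SLC38A6 and from -0.0239 to 0.024 for SLC38A10, and with excess from -0.00573 to 0.0281 for SLC7A6. Between the changed media the ranges were -0.0343 to 0.00478 for SLC1A5 (0.0178 with the replicate block), -0.0101 to 0.0604 for SLC43A1, -0.0915 to 0.00646 for SLC36A1 and -0.00953 to 0.143 for SLC38A9. Equal totals gave -0.044 for MFSD12, -0.0561 for SLC43A1 and -0.0143 for SLC38A9 there. The cause was not tested.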
